A study of Mus musculus with 17 samples.

Results

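The genes described here are 37 genes of glycolysis and of the hypoxia response driven by hypoxia-inducible factor 1 (HIF1), chosen by name: Hif1a itself, the glucose transporters and glycolytic enzymes, and known HIF1 targets. A gene entered when its symbol stood in the gene name column of the arrays at a spot that was no control, and its brightest probe stood for it. All 37 were on the arrays, among 39429 probes. Probes were kept for testing if all arrays of any 1 group showed them well above background. That left 15254 genes, with 32 of the 37 among them, and each of those 32 passed on all 17 arrays. The other 5 (Eno2, Egln3, P4ha2, Adm and Mxi1) were not well above background on any of the 17 arrays and enter no comparison.

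The RNA came from DA1-3b, a murine leukaemia line that carries the Bcr-Abl oncogene (strain C3H eOuJ), grown in DMEM with serum and transfected with plasmids for murine p65/RelA, one of the proteins that form NF-kB transcription factors. The groups were wild-type p65 (WT, 4 arrays), the mutant D361E, which the series describes as non-cleavable (4 arrays), the fragment of residues 1-361 (3 arrays), the fragment of residues 362-549 (3 arrays), and both fragments together (1-361+362-549, 3 arrays). Every group was transfected. Samples with the empty plasmid were not analysed here, so WT p65 is the reference throughout. The labels do not give the oxygen level or a hypoxia treatment, and they do not say how long after transfection RNA was taken, whether the cells were clones or pools, or whether samples came from separate cultures, so p-values measure the spread between these samples, which may be partly technical.

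Each sample title opens with a number, and the numbers fall into runs of 6. A run is called a round here: rounds 1, 2 and 3 each hold 5 arrays, 1 of every construct, and round 4 holds 1 WT and 1 D361E array. The labels do not say what a round was. The arrays lay on 6 slides of 2 to 4 arrays, and the arrays of each round lay on different slides. Levels below are log2 signal relative to the 75th percentile of the same array, and they compare arrays for 1 probe, never 1 gene with another.

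HIF1 is a pair of proteins, of which HIF-alpha (Hif1a) is the regulated one. In oxygen, prolyl hydroxylases such as Egln1 mark HIF-alpha for VHL and destruction, so its activity is set largely by protein stability, which an array of RNA does not measure. When the protein is stable it binds the core of hypoxia response elements, ACGTG or GCGTG, and raises glucose transporters, most glycolytic enzymes, Pdk1, mitophagy receptors and its own inhibitor Egln1. Hif1a is also a known NF-kB target gene.

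The bases just before the start of 6 members are shown because they hold the core motif at which HIF1 binds: Hif1a, whose RNA followed the construct, and Slc2a1, Ankrd37, Egln1, Bnip3 and Pgk1, whose RNA was higher in round 3. The sequences are from RefSeq (GRCm38.p6), each the 160 bases before the annotated start, 5′ to 3′ on the strand of the gene, at chr12:73907707-73907866 (plus strand) for Hif1a, chr4:119108585-119108744 (plus strand) for Slc2a1, chr8:45999851-46000010 (minus strand) for Ankrd37, chr8:124949255-124949414 (minus strand) for Egln1, chr7:138909507-138909666 (minus strand) for Bnip3 and chrX:106186940-106187099 (plus strand) for Pgk1. Capitals mark ACGTG or GCGTG read on either strand, and adjoining or overlapping matches run together.
Hif1a: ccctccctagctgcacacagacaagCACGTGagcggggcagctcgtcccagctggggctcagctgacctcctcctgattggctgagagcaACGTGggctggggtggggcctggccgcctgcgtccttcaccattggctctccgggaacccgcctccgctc
Slc2a1: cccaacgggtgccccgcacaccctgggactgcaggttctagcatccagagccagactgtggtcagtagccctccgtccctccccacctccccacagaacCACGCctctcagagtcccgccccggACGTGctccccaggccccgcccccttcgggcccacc
Ankrd37: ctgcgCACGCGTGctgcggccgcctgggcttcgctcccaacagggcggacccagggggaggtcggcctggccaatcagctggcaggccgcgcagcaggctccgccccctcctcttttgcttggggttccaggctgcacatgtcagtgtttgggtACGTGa
Egln1: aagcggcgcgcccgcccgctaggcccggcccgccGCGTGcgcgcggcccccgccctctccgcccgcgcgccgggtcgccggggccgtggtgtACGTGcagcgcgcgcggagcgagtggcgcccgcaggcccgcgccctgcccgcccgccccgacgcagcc
Bnip3: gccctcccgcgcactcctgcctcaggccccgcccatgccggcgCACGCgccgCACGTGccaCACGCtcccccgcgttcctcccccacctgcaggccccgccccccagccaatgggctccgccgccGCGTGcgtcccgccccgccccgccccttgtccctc
Pgk1: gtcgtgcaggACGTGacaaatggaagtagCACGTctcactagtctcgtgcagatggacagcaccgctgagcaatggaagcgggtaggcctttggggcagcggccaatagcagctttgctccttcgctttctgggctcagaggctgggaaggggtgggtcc
Counting the base before the start as position -1, the core motif began at -135, -134 and -70 in Hif1a, at -61 and -36 in Slc2a1, at -155, -152 and -6 in Ankrd37, at -126 and -68 in Egln1, and at -150 and -131 in Pgk1. Bnip3 held 5 matches, at -117, -108, -107, -99 and -35. The motif is short and common: of 32851 promoter windows (250 bases before the start to 50 after it), 43.8% held ACGTG or GCGTG on either strand, 19.6% ACGTG and 32.4% GCGTG. By gene it was 46.7% of 27025 genes and 31 of the 34 members in the table (91.2%). Among tested members it was present in 17 of 19 that were called by round and in 10 of 10 that were not. A match is a run of letters and not a measured binding site.

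As for the series as a whole, the 75th percentile of the processed signal ran from 675 to 1072 in round 1, from 700 to 1223 in round 2, from 641 to 906 in round 3 and from 831 to 1035 in round 4. Of 9 haematopoietic markers, 7 were well above background on all 17 arrays (Ptprc, Spi1, Vav1, Laptm5, Coro1a, Il3ra and Csf2rb), Cd34 on 1 and Kit on none, and none of 5 fibroblast or epithelial markers was on all arrays, with 4 of them on none. The 1 tested Rela probe had group means between 4.72 and 4.86 and did not differ from WT in any group (limma, adjusted p from 0.69 to 1). The files do not say whether that probe lies in the plasmid, so it checks no label.

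Hif1a RNA was highest with D361E, next with both fragments, and lowest in WT and in either fragment alone. Its probe lies at chr12:75047269-75047329 (mm9, as the array files give it). In WT the level was -0.20, -0.50, -0.10 and -0.28 in rounds 1 to 4. With D361E it was 0.98, 0.77, 0.87 and 0.84 in the same rounds. The groups did not overlap. The 3 arrays with both fragments gave 0.29, 0.37 and 0.27, between those groups and overlapping neither. Fragment 1-361 gave -0.48, -0.54 and -0.39, and fragment 362-549 gave -0.63, -0.35 and -0.33, which overlap each other and reach the lowest WT array.

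In limma's fit over the 5 groups, Hif1a was higher with D361E than in WT by 1.14 ± 0.11 on the log2 scale (SE, 4 arrays against 4), or 2.2-fold, with a Benjamini-Hochberg adjusted p of 7.11e-05. With both fragments it was higher than in WT by 0.58 ± 0.12 (adjusted p = 0.00954). Without the second array of both fragments the adjusted p of that rise was 0.0564, with the slide as a block it was 0.314 at a difference of 0.53, with normexp background correction 0.354, and with the mean of both probes 0.311. Neither single fragment was called against WT (-0.20 ± 0.12, adjusted p = 0.761 for 1-361, and -0.17 ± 0.12, adjusted p = 0.834 for 362-549). D361E exceeded 1-361 by 2.52-fold and 362-549 by 2.47-fold (adjusted p = 1.65e-05 and 2.11e-05), and it exceeded both fragments together by 1.47-fold (adjusted p = 0.00853). With no scaling between arrays that last difference was -0.15 (both fragments minus D361E, adjusted p = 0.57), and with normexp its adjusted p was 0.19. Both fragments together stood above 1-361 by 0.78 ± 0.13 and above 362-549 by 0.75 ± 0.13 (adjusted p = 0.00165 and 0.00184), and with the mean of both probes by 0.25 and 0.46 (adjusted p = 0.475 and 0.185). With normexp those adjusted p were 0.0925 and 0.0955, and with the slide as a block the one against 362-549 was 0.182. The single fragments differed from each other by 0.03 ± 0.13. A second Hif1a probe, well above background on only 9 of 17 arrays, also read higher with D361E. Between rounds 3 and 1 it differed by -0.67, where the probe used differed by 0.07.

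The D361E to WT difference in Hif1a was 1.18, 1.27, 0.97 and 1.13 in rounds 1 to 4. Across rounds Hif1a was not called: the F-test over rounds, with the construct in the model, gave an adjusted p of 0.705, and round 3 differed from round 1 by 0.07 ± 0.09. Over the 15 arrays of rounds 1 to 3, the construct took 95.7% of the sum of squares of Hif1a and the round 0.8%.

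Most of the other members followed the round. They were higher in round 3 than in rounds 1 and 2, in every construct, while Hif1a was not called between rounds. By the test over rounds 22 of 32 members were called, where 50.3% of all genes tested were, so the count itself is near the background. By direction, 23 of 32 were higher in round 3 than in round 1 and none lower, where 20.5% of genes were higher and 18.2% lower. Against round 2, 20 were higher (17.2% of genes) and 1, Slc16a3, was lower (17.7% of genes). The median member differed by 0.53 between rounds 3 and 1, and the median gene by 0.05. Between rounds 2 and 1 limma called 0 of the 32 (and 0.0262% of genes), with a median member difference of 0.01.

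**Figure D1:**
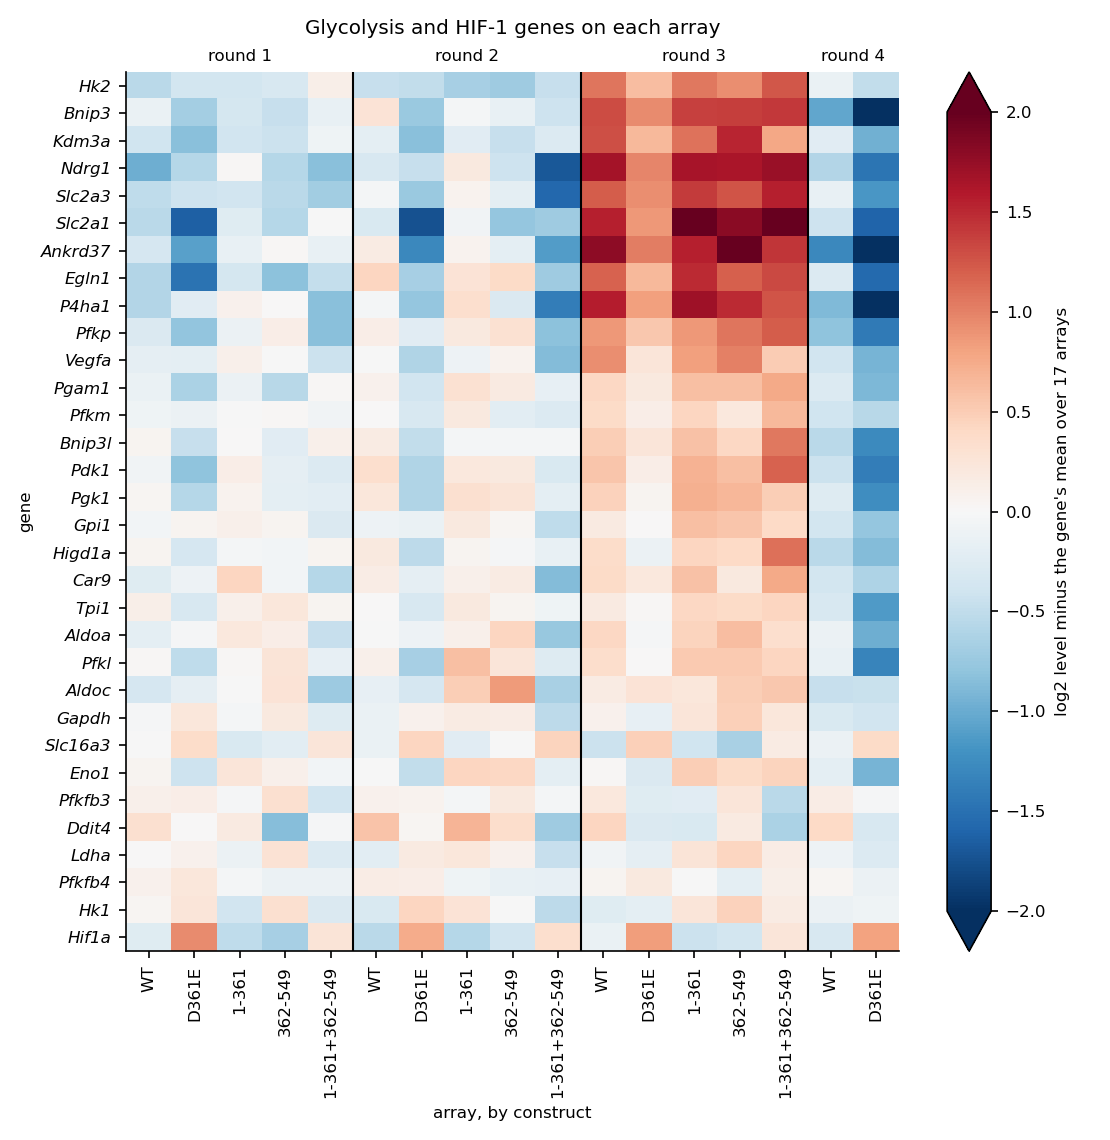
Heat map of the 32 tested genes (rows) on 17 arrays (columns, by round and then construct), coloured by log2 level minus the mean of that gene over all arrays, with the colour scale ending at -2 and 2 and genes ordered by the share of variation that followed the round. The 5 arrays of round 3 are red for the upper rows in every construct, whereas the bottom row, Hif1a, is red for D361E in each round.

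In 12 members all 5 arrays of round 3 lay above all 12 other arrays: Slc2a1, Slc2a3, Hk2, Pfkp, Bnip3, Bnip3l, Egln1, Vegfa, Ankrd37, Ndrg1, P4ha1 and Kdm3a. That is 37.5% of the members, and 4.83% of all genes did so. In 23 of 32 members (71.9%) round 3 exceeded the mean of rounds 1 and 2 within each of the 5 constructs, against 21.9% of all genes. Ordered by the mean rise of round 3 over rounds 1 and 2, Slc2a1 stood at rank 7 of 15254 genes, Ndrg1 at 13, Ankrd37 at 24, Slc2a3 at 38, P4ha1 at 42, Egln1 at 62, Bnip3 at 63, Kdm3a at 74 and Hk2 at 88.

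Among the genes of glucose uptake and its first step, 3 of 4 were higher in round 3, with a median difference of 1.53. Values are given in the order WT, D361E, 1-361, 362-549 and both fragments. Slc2a1, the glucose transporter GLUT1 (probe at chr4:118809864-118809923, mm9), stood at 3.37, 2.28, 3.66, 3.34 and 3.90 in round 1, and at 3.60, 2.17, 3.83, 3.14 and 3.19 in round 2. In round 3 it stood at 5.46, 4.78, 5.98, 5.71 and 6.22, and in round 4 at 3.50 in WT and 2.30 with D361E. Every construct was high in round 3 and fell back in round 4 where it was measured, and D361E gave the lowest array of each round. Slc2a1 was 2.32 ± 0.14 higher in round 3 than in round 1 (4.98-fold, adjusted p = 3.57e-06) and 2.29 ± 0.20 lower in round 4 than in round 3 (adjusted p = 6.72e-05).

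Slc2a3, which encodes the high-affinity transporter GLUT3, ran from 4.94 to 5.25 in round 1, from 4.06 to 5.71 in round 2 and from 6.56 to 7.19 in round 3. Hk2, the inducible hexokinase that phosphorylates glucose (chr6:82675056-82675115), stood at 1.61, 1.78, 1.79, 1.83 and 2.27 in round 1 and at 1.70, 1.66, 1.49, 1.45 and 1.69 in round 2. Its round 3 values were 3.23, 2.77, 3.21, 3.08 and 3.39, above all others, and its round 4 values were 2.02 in WT and 1.66 with D361E. Hk2 was 1.28 ± 0.11 higher in round 3 than in round 1 (2.43-fold, adjusted p = 1.86e-05). Of its sum of squares over rounds 1 to 3 the round took 92.9% and the construct 3.6%. The brightest probe named Hk1, the constitutive hexokinase, differed by 0.10 ± 0.18 between those rounds (adjusted p = 0.71), but it is placed on chromosome 5, away from the other 2 Hk1 probes on chromosome 10, which read 0.37 and 0.76 higher.

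The glycolytic enzymes moved the same way by less. Of 11 tested, 9 were higher in round 3 than in round 1, with a median difference of 0.43 and a range from 0.15 to 1.29. Pfkp, a phosphofructokinase isoform at the committed step, was the highest of them (1.29 ± 0.18, adjusted p = 0.000244), and its levels were 2.34 to 3.02 in round 3 against 0.39 to 2.11 on the 12 other arrays. Pgam1, the phosphoglycerate mutase, rose by 0.80 ± 0.12 and Pgk1, the phosphoglycerate kinase that makes ATP, by 0.65 ± 0.10 (adjusted p = 0.000415 and 0.000354). Aldoc, Pfkl, Aldoa, Pfkm, Gpi1 and Tpi1 were higher by between 0.26 and 0.54. Eno1, an enolase, differed by 0.23 ± 0.10 (adjusted p = 0.0991) and Gapdh by 0.15 ± 0.13 (adjusted p = 0.368).

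Among the genes that steer pyruvate, only Pdk1 was called between rounds 3 and 1. Pdk1, the kinase that shuts pyruvate dehydrogenase, rose by 0.87 ± 0.15 (adjusted p = 0.000965), and its 5 arrays of round 3 read 0.62, 0.19, 0.76, 0.66 and 1.25. Ldha, which turns pyruvate into lactate, differed by 0.11 ± 0.13 at its brightest probe, and Pfkfb3 and Pfkfb4, which set the level of the phosphofructokinase activator fructose bisphosphate, by -0.14 ± 0.09 and 0.03 ± 0.07. Slc16a3, the lactate exporter MCT4, differed by -0.18 ± 0.10 from round 1 (adjusted p = 0.156) and fell by 0.27 against round 2 (adjusted p = 0.0489).

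The mitochondrial members all rose. Bnip3, a mitophagy receptor of the outer membrane (chr7:146082760-146082819), stood at 6.07, 5.52, 5.85, 5.73 and 6.05 in round 1 and at 6.47, 5.46, 6.16, 6.05 and 5.79 in round 2. In round 3 it stood at 7.50, 7.14, 7.57, 7.58 and 7.61. Round 4 gave its lowest values, 5.15 in WT and 3.64 with D361E. Bnip3 was 3.1-fold higher in round 3 than in round 1 (1.63 ± 0.15, adjusted p = 2.32e-05), and in round 4 it was lower than in rounds 1 and 2 as well (adjusted p = 0.0137 and 0.04). Its relative Bnip3l rose by 0.66 ± 0.10 and Higd1a, a small protein of the respiratory chain, by 0.50 ± 0.13 (adjusted p = 0.000445 and 0.0107).

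Egln1, the oxygen-sensing hydroxylase that marks HIF-alpha (chr8:127432487-127432499, the part of its probe that the array files place there), was higher in round 3 in each construct. It read -1.14, -2.03, -0.90, -1.37 and -1.02 in round 1 and -0.12, -1.22, -0.27, -0.16 and -1.26 in round 2. In round 3 it read 0.63, 0.10, 0.94, 0.65 and 0.77, and in round 4 -0.82 in WT and -2.11 with D361E. The rise over round 1 was 1.91 ± 0.18 (3.75-fold, adjusted p = 3.07e-05). Of the other prolyl hydroxylase genes of this kind, Egln3 was not well above background on any array. Egln2, which is outside the 37, was so on all 17 arrays. It differed by -0.14 ± 0.10 between rounds 3 and 1 (adjusted p = 0.289).

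Ankrd37, an ankyrin repeat gene and direct HIF1 target (chr8:47082404-47082463), read 2.62, 1.88, 2.81, 2.99 and 2.82 in round 1 and 3.12, 1.68, 3.04, 2.76 and 1.84 in round 2. It read 4.75, 3.98, 4.52, 4.98 and 4.39 in round 3, and 1.68 in WT and 0.51 with D361E in round 4. Round 3 exceeded round 1 by 1.90 ± 0.17 (3.74-fold, adjusted p = 2.47e-05). Kdm3a, a histone H3 lysine demethylase (chr6:71539112-71539171), read 1.74, 1.30, 1.75, 1.71 and 2.04 in round 1, then 1.94, 1.30, 1.90, 1.67 and 1.86 in round 2. In round 3 it read 3.42, 2.78, 3.22, 3.65 and 2.90, and in round 4 it was back at 1.91 in WT and 1.18 with D361E. Its rise was 1.49 ± 0.13 (2.8-fold, adjusted p = 1.86e-05).

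Ndrg1, a stress-induced gene, rose by 2.11 ± 0.26 (4.33-fold, adjusted p = 0.00012), and P4ha1, a collagen prolyl hydroxylase subunit, by 1.68 ± 0.22 (3.2-fold, adjusted p = 0.000189). Vegfa, the angiogenic growth factor, rose by 0.84 ± 0.11 and Car9, a surface carbonic anhydrase, by 0.53 ± 0.19 (adjusted p = 0.000176 and 0.0426). Ddit4, an mTORC1 inhibitor that several stresses induce, differed by -0.05 ± 0.23.

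**Figure D2:**
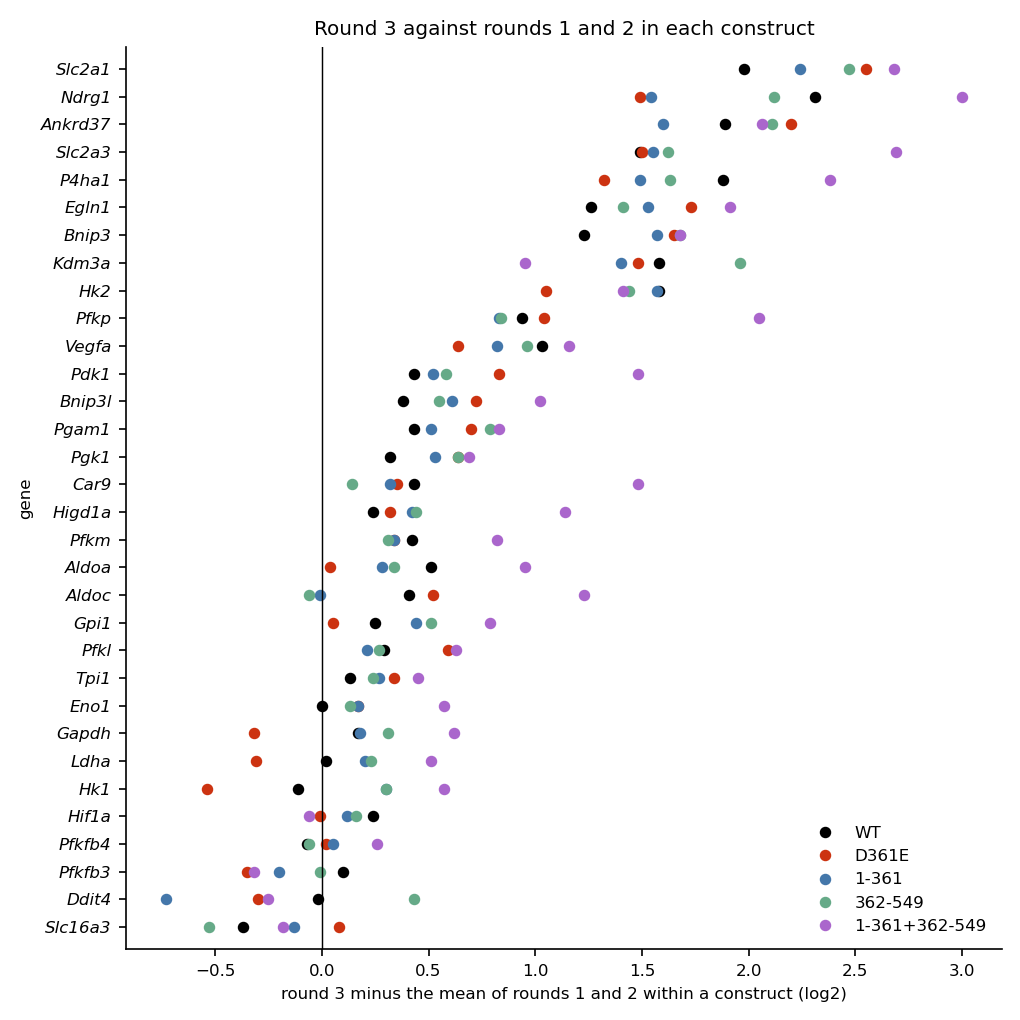
Level in round 3 minus the mean of rounds 1 and 2 within each construct (log2, x axis) for the 32 tested genes (y axis), 1 point per construct. All 5 points of Slc2a1 lie between 1.98 and 2.68, those of Ankrd37 between 1.60 and 2.20 and those of Hif1a between -0.06 and 0.24.

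Round 4, with its 2 arrays, read below round 3 for 24 of 32 members, none above it, where 21.7% of genes were lower. Against round 1 it was lower for 5 members, Bnip3, Bnip3l, Ankrd37, P4ha1 and Tpi1 (9.05% of genes), and against round 2 for Bnip3 alone (0.0393% of genes). With round 3 left out, the test over rounds called 4 members, Pfkp, Pdk1, Bnip3 and Bnip3l, and 9.44% of genes. Leaving out round 3 was chosen after its values were seen.

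Over rounds 1 to 3, which are balanced, the round took more than 50% of the sum of squares in 15 of 32 members (46.9%), against 21.9% of all genes. The median member had 48.8% by round and 31.3% by construct, and the median gene 24.5% and 40.8%. Kdm3a had 87.1% by round, Ndrg1 83.4%, Slc2a1 81.2% and Ankrd37 80.3%. Slc16a3 (79.2%), Pfkfb4 (78.4%), Eno1 (77.1%), Pfkfb3 (69.6%), Pfkl (58.2%) and Tpi1 (52.8%) had more than 50% by construct, as Hif1a did. These are 7 of 32 members, against 5688 of 15254 genes, a smaller share than over all genes.

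**Figure D3:**
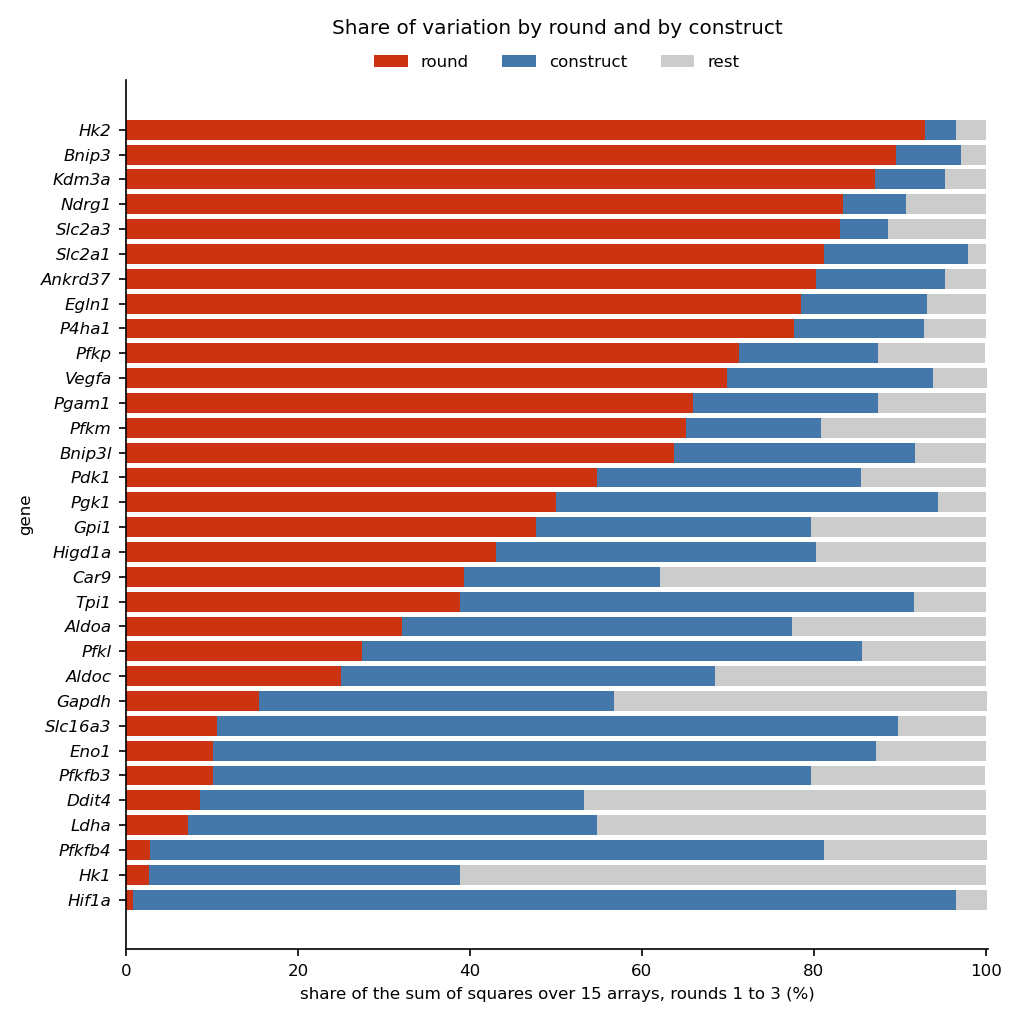
Share of each gene's sum of squares over the 15 arrays of rounds 1 to 3 (x axis, percent) that followed the round (red), the construct (blue) and neither (grey), for the 32 tested genes ordered by the share of the round. Hk2 heads the order with 92.9% by round and Hif1a closes it with 0.8% by round and 95.7% by construct.

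Other cell types and array measures were set beside the round. The summed level of the 7 haematopoietic markers that were tested ran from 6.59 to 7.41 in round 1 and from 6.94 to 7.26 in round 3. The sum of the 3 tested macrophage markers ran from 0.79 to 2.26 and from 1.35 to 2.37 in the same rounds. That of the 2 tested erythroid markers ran from 2.83 to 4.74 and from 4.09 to 5.54. Of the 7 haematopoietic markers 1 was higher in round 3 than in round 1, of the 3 macrophage markers 2 (Cd68 and Adgre1) and of the 2 erythroid markers 1 (Hba-a1). None of 5 neutrophil markers passed the filter. The part of these in the rise of the members was not tested. In bulk RNA, a change in all cells and a change in some of them cannot be told apart.

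The first construct comparison, D361E against WT, asks what changes when p65 carries the mutation. Without regard to round, Hif1a was the only member called of 32 (0.485% of genes were called), although the median member was lower with D361E by 0.45 (median gene 0.03 higher) and 25 of 32 had an estimate below 0. That median was -0.16 without the WT array of round 3, -0.18 without the D361E array of round 4, and -0.67 with no scaling between arrays, where the median gene was at -0.19. The spread within groups included that between rounds, and Slc2a1 had a difference of -1.10 ± 0.83 (adjusted p = 1). With the round as a block, which compares D361E and WT inside each round, 8 members were lower and 2 higher, where 0.833% of genes were lower and 0.8% higher. The labels do not say that the arrays of 1 round belong together, so the fit without the block is kept as the main one.

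The 8 lower members were Slc2a1, Ankrd37, Egln1, Bnip3, Pdk1, Pgk1, Pfkl and Bnip3l, and the 2 higher ones were Hif1a and Slc16a3. With the block, Slc2a1 was lower by 1.10 ± 0.16 (2.14-fold, adjusted p = 0.00424), and its within-round differences were -1.09, -1.43, -0.68 and -1.20. Pgk1 was lower by 0.70 ± 0.11 (adjusted p = 0.00613), with differences of -0.61, -0.82, -0.40 and -0.98. Ankrd37 differed by -0.74, -1.43, -0.77 and -1.17, or -1.03 ± 0.19 in the fit (adjusted p = 0.0233). Bnip3 differed by -0.55, -1.02, -0.36 and -1.51 (-0.86 ± 0.16, adjusted p = 0.0256), and Egln1 by -0.89, -1.10, -0.53 and -1.29 (-0.95 ± 0.20, adjusted p = 0.0423). All have the same sign in each round, and for all but Ankrd37 the smallest difference was that of round 3.

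Pdk1 (-0.76 ± 0.17), Pfkl, the liver-type phosphofructokinase (-0.70 ± 0.15), and Bnip3l (-0.54 ± 0.11) had adjusted p of 0.0482, 0.0419 and 0.0394 with the block. Slc16a3 went the other way. It stood at -2.02, -2.14, -2.44 and -2.13 in WT and at -1.64, -1.58, -1.53 and -1.63 with D361E, without overlap, a rise of 0.58 ± 0.11 with the block (adjusted p = 0.0218) and of 0.58 ± 0.14 without it (adjusted p = 0.107). Eno1 and Ddit4, at -0.50 ± 0.16 and -0.57 ± 0.25 without the block, were not called (adjusted p = 0.463 and 0.948).

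**Figure D4:**
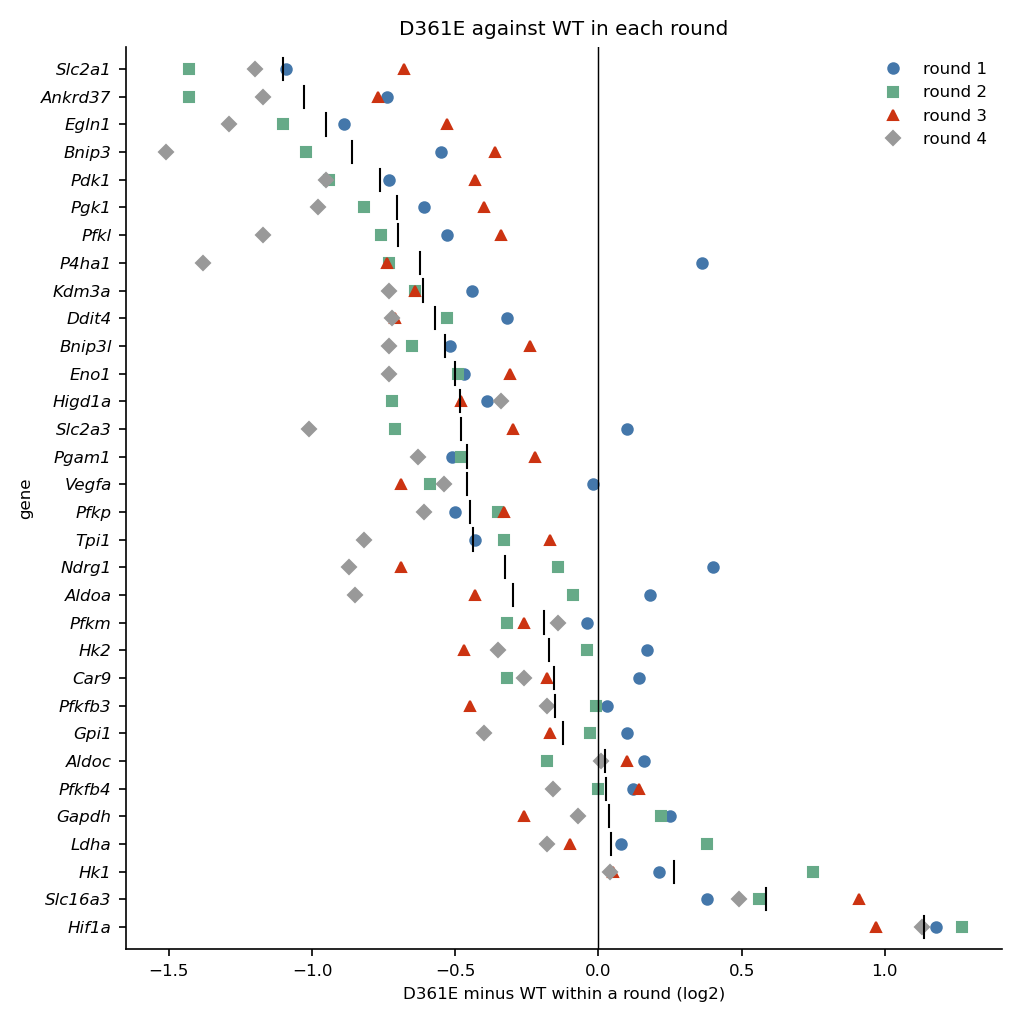
D361E minus WT within each round (log2, x axis) for the 32 tested genes (y axis, lowest mean at the top), with 1 point per round and a bar at the mean of the 4 rounds. Slc2a1 lies between -1.43 and -0.68, and Hif1a, at the bottom, between 0.97 and 1.27.

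Counting rounds alone, 17 of 32 members (53.1%) read lower with D361E than in WT in all 4 rounds, against 9.66% of all genes, and 3 (Hif1a, Slc16a3 and Hk1) read higher in all 4, against 10.5%. For Hk1 this is the brightest probe, placed on chromosome 5. The Hk1 probes on chromosome 10 differed by -0.40 between D361E and WT. The median member differed by -0.03 in round 1, -0.41 in round 2, -0.33 in round 3 and -0.67 in round 4. D361E and WT arrays shared a slide on 2 slides, though from different rounds. On the first, where D361E was of round 2 and WT of round 4, Hif1a differed by 1.05, Slc2a1 by -1.33 and the median member by 0.01. On the other, where D361E was of round 4 and WT of round 1, Hif1a differed by 1.04, Slc2a1 by -1.07 and the median member by -0.74. With the slide as a block Hif1a was the only member called (1.12 ± 0.16, adjusted p = 0.0223; 0.157% of genes called). With round 3 left out, Hif1a and Slc2a1 were called (0.38% of genes), Slc2a1 at an adjusted p of 0.019. The summed level of the 2 tested erythroid markers ran from 2.83 to 4.15 in WT and from 4.03 to 5.41 with D361E. Without the block, Hba-a1 differed by 1.74 ± 0.41 (adjusted p = 0.1) and Epor by 0.00 ± 0.10, and neither was called. With the round as a block Hba-a1 was called (adjusted p = 0.0222). Of 4 tested mast cell or basophil markers 1 was lower with D361E, Cpa3, by 2.54 ± 0.32 (adjusted p = 0.000775). The part of these in the differences of the members was not tested.

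Against WT, 0 of 32 members were called by limma with 1-361 (0.715% of genes called) and 0 with 362-549 (0.695% of genes), with or without the round as a block. At an unadjusted p under 0.05 there were 1 and 2 members. The median member differed by 0.23 with 1-361 and 0.13 with 362-549, and with the block by 0.07 and -0.04. Without the block these medians hung on single arrays. That of 1-361 ran from 0.07 without its round 3 array to 0.39 without the WT array of round 3. That of 362-549 ran from -0.08 without its round 3 array to 0.38 without its round 1 array, so its sign was not kept. The fragment groups hold no array of round 4, in which 24 members were lower than in round 3. Between the single fragments limma also called no member (0 of 32, 1 at an unadjusted p under 0.05, and 0.623% of genes).

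Both fragments together differed from WT in Hif1a alone (5.13% of genes were called). With the block 5 members were called: Hif1a (0.57 ± 0.11) and Slc16a3 (0.45 ± 0.12, adjusted p = 0.0173) were higher, where 17.5% of genes were, and Pfkfb3 (-0.46 ± 0.12, adjusted p = 0.0138), Vegfa (-0.53 ± 0.14, adjusted p = 0.0148) and Ddit4 (-0.92 ± 0.29, adjusted p = 0.0314) were lower, where 13.3% were. The 2 and 3 of 32 are at or below the shares of all genes. Cell type markers moved in the same contrast without the block. Of 4 tested mast cell or basophil markers 3 were lower with both fragments. Cpa3 differed by -7.37 ± 0.35 (adjusted p = 2.53e-09), and 1 of its 3 arrays with both fragments was well above background. On none of those 3 arrays were the probes used for Fcer1a, Mcpt8, the macrophage marker Adgre1 or the T cell marker Cd3g well above background. Fcer1a and Adgre1 were so on all 4 WT arrays, and each has only a bound. The bound sets the WT mean against the dimmest signal well above background on the arrays with both fragments. Fcer1a was at least 3.13-fold lower than in WT (adjusted p = 1.07e-06) and Adgre1 at least 10.6-fold (adjusted p = 2.72e-07). The Adgre1 values hold for the probe used alone. With its other probes counted, Adgre1 was well above background on 16 of the 17 arrays. Mcpt8 and Cd3g were well above background on only 3 and 2 of the 4 WT arrays. Their WT means are partly background and give no bound, though limma called both lower (adjusted p = 0.0203 and 0.00415). The T cell marker Cd3d differed by -0.95 (adjusted p = 4.52e-05) and the haematopoietic marker Csf2rb by -1.17 (adjusted p = 0.000121). In all, 1 of 3 macrophage, 2 of 4 T cell and 1 of 7 haematopoietic markers tested were lower. Of 2 erythroid markers Epor was higher, by 0.45 (adjusted p = 0.0273). The summed haematopoietic markers lay between 6.56 and 6.94 with both fragments and between 7.05 and 7.46 in the other groups. The part of these in the differences of the members was not tested. For some members, picked after their values were seen, the difference of round 3 from the mean of rounds 1 and 2 was largest with both fragments: it was 2.05 for Pfkp, 1.48 for Pdk1 and 1.48 for Car9, against 0.94, 0.43 and 0.43 in WT. Whether this differed between constructs was not tested, as each construct has 1 array in a round.

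Set against D361E in place of WT, the 3 fragment groups had less Hif1a and more Eno1. Eno1 stood at 6.79, 6.74, 6.76 and 6.54 in WT in rounds 1 to 4, above all D361E arrays. It stood at 6.32, 6.25, 6.45 and 5.81 with D361E in the same rounds, at 6.99, 7.17 and 7.24 with 1-361, at 6.85, 7.15 and 7.13 with 362-549, and at 6.68, 6.55 and 7.19 with both fragments, so that none of these arrays fell into the D361E range. Its probe, the only one named Eno1, is placed at chr2:80678866-80678925, on another chromosome than the gene. The rise over D361E was 0.92 ± 0.18 with 1-361 (adjusted p = 0.0155), 0.83 ± 0.18 with 362-549 (adjusted p = 0.0277) and 0.60 ± 0.18 with both fragments (adjusted p = 0.0422). With the slide as a block the adjusted p-values were 0.181, 0.366 and 0.157, and with normexp 0.337, 0.556 and 0.389. Each of these calls also missed the threshold without at least 1 array of its own groups. Of 28 settings, the call held in 24 with 1-361, in 18 with 362-549 and in 13 with both fragments.

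Slc16a3 stood at -2.31, -2.24 and -2.40 with 1-361, at -2.22, -2.01 and -2.65 with 362-549, and at -1.77, -1.57 and -1.85 with both fragments. It was thus high in the same groups as Hif1a, D361E and both fragments. It fell by 0.72 ± 0.15 from D361E to 1-361 and by 0.70 ± 0.15 from D361E to 362-549 (adjusted p = 0.0292 and 0.0321). Both fragments together exceeded 1-361 by 0.59 ± 0.16 and 362-549 by 0.56 ± 0.16 (adjusted p = 0.0318 and 0.0306). None of these 4 Slc16a3 calls held with the slide as a block (adjusted p from 0.172 to 0.974), nor with normexp (from 0.241 to 1), and each also missed the threshold without at least 1 array of its own groups. Pfkfb3 was lower with both fragments (0.11, 0.44 and -0.05) than with 362-549 (0.80, 0.68 and 0.73), by 0.57 ± 0.14 (adjusted p = 0.0162), and with no scaling between arrays the difference was 0.03 the other way. With the slide as a block its adjusted p was 0.4, with normexp 0.0803 and with no filter 0.0536. It was 0.0518 without the first 362-549 array, 0.0689 without the first array of both fragments and 0.0503 with round 3 left out. In the other groups Pfkfb3 stood at 0.59, 0.58, 0.69 and 0.64 in WT, at 0.62, 0.56, 0.24 and 0.46 with D361E, and at 0.47, 0.45 and 0.26 with 1-361.

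In all, 3 members were called between 1-361 and D361E (0.99% of genes), 3 between 362-549 and D361E (1.31%) and 2 between both fragments and D361E (9.68%). Both fragments together differed from 1-361 in 2 members (10.8% of genes) and from 362-549 in 3 (14.4%). The test over all 5 groups called Hif1a, Eno1 and Slc16a3, 9.38% of the members, near the 8.81% of all genes.

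**Figure D5:**
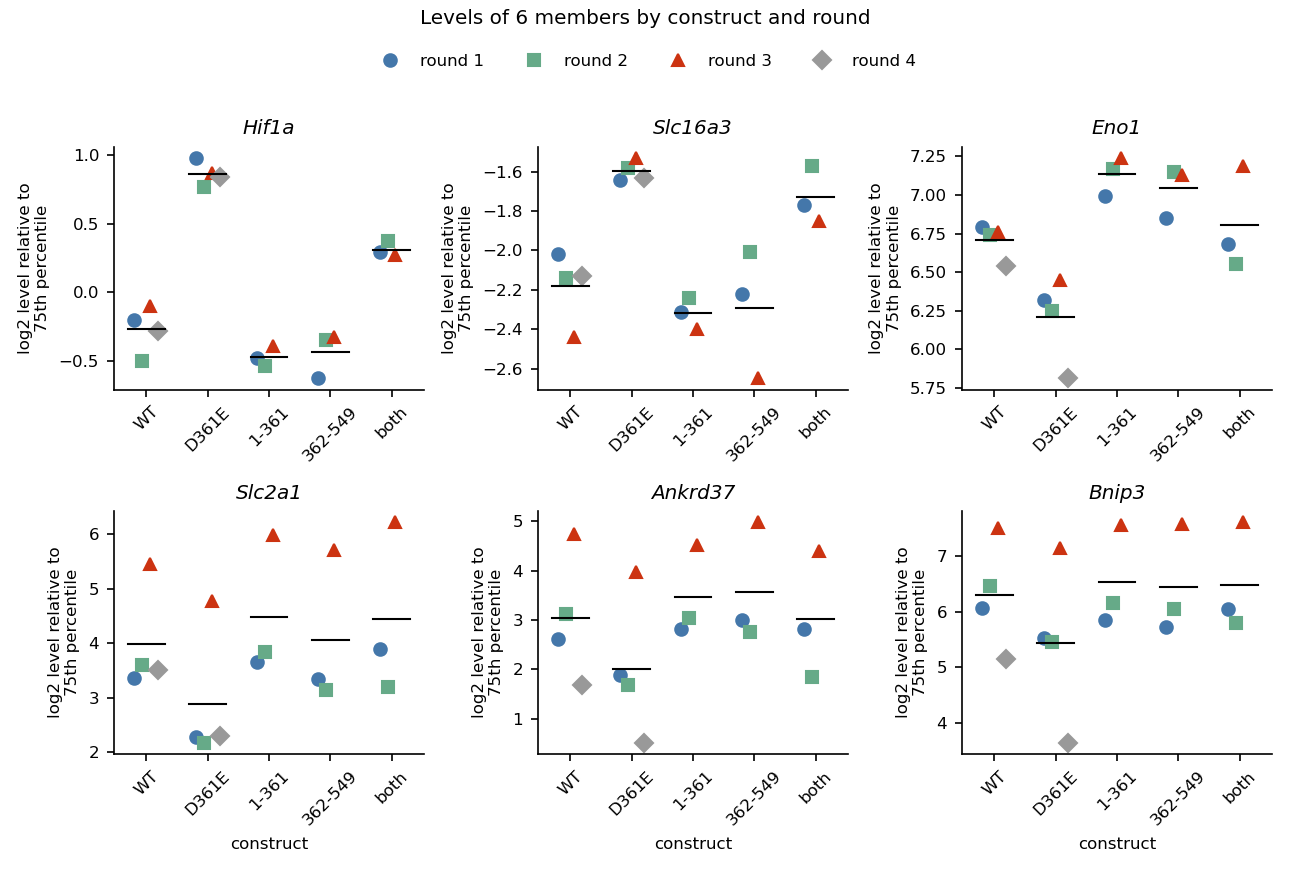
Log2 level relative to the 75th percentile of the array (y axis, 1 scale per panel) for 6 genes by construct (x axis, "both" being 1-361+362-549), with 1 symbol per array marked by round and a bar at the mean of each group. In the Hif1a panel the D361E arrays lie at 0.77 to 0.98 in every round and the WT arrays at -0.50 to -0.10, with both single fragments at or near the WT level, whereas in the bottom row the round 3 symbols stand above the rest in every group.

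With the round as a block, 1-361 exceeded D361E in 8 members (1.64% of genes) and fell below it in 2 (1.32%). Among the 8 were Slc2a1 (1.43 ± 0.18, adjusted p = 0.00123), Pgk1 (0.78 ± 0.12, adjusted p = 0.00453) and Tpi1, the triose phosphate isomerase (0.50 ± 0.11, adjusted p = 0.0378). Fragment 362-549 exceeded D361E in 7 members (1.86% of genes) and was below it in 2 (1.74%), with Slc2a1 at 1.01 ± 0.18 and Ankrd37 at 1.09 ± 0.22 (adjusted p = 0.00946 and 0.0184). In both comparisons the 2 lower members were Hif1a and Slc16a3. Both comparisons share the D361E arrays, as does the one against WT, so they are not independent of each other.

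Both fragments together exceeded D361E with the block in 12 members, where 21.7% of genes were higher, and were lower in Hif1a, where 18.2% were lower. Against 1-361 they were higher in Hif1a and Slc16a3 (19.1% of genes) and lower in Gpi1, Vegfa and P4ha1 (17.9%). Against 362-549 they were higher in the same 2 genes (18.7%) and lower in 7 members (21%), by between 0.46 and 0.81. Those 7 were Pfkp, Aldoa, Aldoc, Gapdh, Ldha, Pfkfb3 and Vegfa. The Gapdh and Ldha calls rest on the brightest probe, and their other probes were not compared in this contrast. Against WT, without the block, the brightest Gapdh probe read -0.09 and the Gapdh probes on chromosome 6 from -0.04 to 0.30. The brightest Ldha probe read -0.10 there and the others 0.20 and 0.12.

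For a few members the probes of 1 gene did not agree, among them genes not called between rounds 3 and 1. The brightest Gapdh probe, placed on chromosome X, was 0.15 higher in round 3 than in round 1 and 0.04 higher with D361E than in WT. The 5 Gapdh probes on chromosome 6 were 0.35 to 0.96 higher in round 3 and lower with D361E by 0.33 to 0.78. The brightest Ldha probe read 0.11 and 0.05 in those comparisons, and the other 2 read 0.77 and 0.12 in round 3 and -0.65 and -0.52 with D361E. The Hk1 probes on chromosome 10 read -0.40 with D361E, where the brightest read 0.26. Of the Vegfa probes, the dimmer rose by 0.03 in round 3 and the brighter by 0.84. Bnip3 (3 probes), Bnip3l (4), Pgk1 (2) and Slc16a3 (2) gave like values at each probe. The Pgk1 probe used is placed on chromosome 3 and the other on the X chromosome, where Pgk1 lies, and they read 0.65 and 0.77 in round 3.

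Genes of the pathway outside the 37 were counted from lists of related genes. Over all genes tested, 20.5% were higher in round 3 than in round 1 and 18.2% lower. Of 25 tested other hypoxia and HIF targets, 16 were higher and 3 lower, with a median difference of 0.75, and they included the histone demethylase Kdm4b (2.31 ± 0.10, adjusted p = 8.37e-07), the adenylate kinase Ak4 (1.79 ± 0.11, adjusted p = 3.8e-06), haem oxygenase Hmox1 (1.58 ± 0.20, adjusted p = 0.000156) and glycogen synthase Gys1 (1.39 ± 0.26, adjusted p = 0.00146). Flt1, Tfrc and Ppfia4 were lower. Of 14 tested genes of the HIF machinery, 6 were higher (Hif3a, Arnt, Arnt2, Vhl, Siah1a and Siah2) and Crebbp was lower.

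Of 16 tested other genes of glycolysis and pyruvate, 4 were higher (Pgam2, Pdk3, Pdha1 and Slc2a8) and 2 lower (Eno3 and Dlat), with a median of 0.05. Among 20 genes of the pentose phosphate pathway and the tricarboxylic acid cycle, 1 was higher (Idh3b) and 5 lower (G6pdx, Pgd, Idh3a, Ogdh and Sdhb), with a median of -0.04. For the stress pathway that shares Ddit4, 3 of 12 tested genes were higher (Ddit3, Trib3 and Cth) and 2 lower (Psat1 and Mthfd2). These counts are to be read against the 20.5% of all genes higher and 18.2% lower. Between D361E and WT, 1 gene of these lists was called (0.485% of all genes), the chemokine receptor Cxcr4, which was higher by 0.86 (adjusted p = 0.0275). With the round as a block (1.63% of all genes called), Cxcr4 was called again (adjusted p = 0.00256). Cited2, of the HIF machinery list, was then lower by 0.43 ± 0.08 (adjusted p = 0.0252). The other HIF targets had a median of -0.34 in that comparison, the HIF machinery 0.01 and the pentose phosphate and tricarboxylic acid genes 0.03.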

How the data were processed

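RNA of 17 samples was hybridised with Cy3 to 1-colour Agilent arrays (design 026655, probe coordinates on mm9, per the file headers). Per the file headers and the submitters' processing notes, the authors made the linear intensity of each spot (processed signal) with Agilent Feature Extraction 10.7.3.1. The deposited table of the series equals these values (largest relative difference 0) and was not used otherwise. Flag values in the deposited files, which carry no unit, were used only to leave out outlier spots and to judge background.

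From each log2 of the deposited processed signal, the array's own 75th percentile was taken off. Spots of 1 probe were averaged, and 132 probes lacking any usable spot on an array were dropped. The filter kept 19769 probes, 17591 of them well above background on all 17 arrays, and no spot was saturated. Symbols came through accessions from RefSeq (GRCm38.p6), which named 27508 probes. The brightest probe stood for a gene.

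Tests used limma 3.58.1 in R 4.3.3 (lmFit, eBayes), with 1 model over the 5 groups, with Benjamini-Hochberg adjustment over all 15254 genes and a threshold of 0.05. Rounds were tested in a model with group and round. Arrays of 1 round were compared across groups by the correlation of their deviations from the group means: it ran from -0.16 to 0.62 in round 1, from -0.18 to 0.57 in round 2, from 0.29 to 0.73 in round 3 and was 0.67 in round 4, against -0.70 to 0.67 between rounds. The median was 0.30 in round 1, 0.06 in round 2 and 0.61 in round 3, against -0.14 between rounds. Some same-round pairs were near or below 0, though the same-round medians lay above that between rounds. The test over rounds called 50.3% of all genes. Deviations from a group mean sum to 0 within a group, which pulls pairs between rounds below 0, so these correlations do not settle the choice. As the labels do not call a round a batch, the round is a block only in a named alternative. The main fit therefore keeps the spread between rounds in its error. The precision is limited by the number of arrays.

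The genes, the lists and the tests were chosen with earlier results of these data known. Hif1a, each member called in any of the 10 contrasts between groups, and the 6 members with the smallest adjusted p by round are given in full, and the others by range and count. Genes outside the 37 are named only where they were called, apart from Rela, Egln2 and the markers. Alternatives were the slide or round as a block, the slide as a random block, quantile or no scaling, normexp with an offset of 50, other filters, the mean of probes, the gene names of the array files and leaving out each array. Leaving out round 3 was added after seeing the data.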

Additional observations from a re-analysis of the deposited data

Results flagged for a closer look

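In groups of 4 arrays, the highest or lowest array was compared with its nearest neighbour for the 32 tested genes in WT and D361E. Of 64 such sets 6 had a lone extreme array, 5 of them the array of round 3. Chance alone marks about 1 set in 20. Slc2a1 stood at 5.46 in WT in round 3, with the next array at 3.60, and at 4.78 with D361E in round 3, with the next at 2.30. Kdm3a stood at 3.42 in WT and at 2.78 with D361E in that round, with the next arrays at 1.94 and 1.30. Hk2 stood at 2.77 with D361E in round 3, and the next array was at 1.78. Aldoa was lowest with D361E in round 4, at 7.91, with the next array at 8.78.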

How the results depend on the processing

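Without any block, 1 of 32 members was called for D361E against WT, 1 for both fragments against WT, 13 gene and contrast pairs in the 6 contrasts without WT, 3 across the 5 groups and 22 by round. The round as a replicate block raised these to 10 for D361E against WT (1.63% of genes called) and 5 for both fragments against WT. Those 5 are 15.6% of the members, a smaller share than the 30.9% of all genes. It gave 46 in the other contrasts and 18 across the groups (56.2%), where 36.5% of all genes were called. The slide as a fixed block left 0 for both fragments against WT (1.57% of genes), 4 in the other contrasts and 1 across the groups (3.07%). It had 7 residual degrees of freedom in place of 12. Quantile normalization gave 2 for both fragments against WT. With no scaling there were 20 in the other contrasts and 5 across the groups. Normexp gave 0 for both fragments against WT, 2 in the other contrasts and 1 across the groups. Without a filter there were 6 in the other contrasts. The mean of all probes gave 0 for both fragments against WT. Leaving out round 3 gave 2 for D361E against WT, 6 across the groups and 4 by round. The cause of these moves was not tested. Some of the settings also have fewer arrays or fewer degrees of freedom. Leaving out 1 array gave 1 to 2 for D361E against WT (2 without the third 362-549 array), 1 to 2 for both fragments against WT (2 without the first 362-549 array), 8 to 21 in the other contrasts (8 without the first and 21 without the third array of both fragments) and 3 to 5 across the groups (5 without the latter array). Without normalization between arrays, Pfkfb3 in both fragments against 362-549 turned to 0.03. The Hif1a change between D361E and WT stayed past the threshold in all 28 settings run for it (0.92 to 1.84, adjusted p from 6.9e-05 to 0.043), and the 6 leading changes between rounds 3 and 1 did so in all 27 run for them. Of 834 recomputed changes of single genes 1 reversed. Without a filter, dim probes entered, and their values near background limit what the 5 dim members can show.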
